A study of Mus musculus with 19 samples.

Results

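The genes described here encode enzymes that add or remove methyl groups on histones and other proteins, together with a few of their partners. They were chosen by symbol, as the histone lysine demethylases (Kdm1 to Kdm8), the Setd, Suv39h, Suv420h, Ehmt and Prdm families, the arginine methyltransferases (Prmt), and 9 single genes (Ezh1, Ezh2, Suz12, Eed, Jarid2, Dot1l, Nsd1, Phf6 and Asxl1), leaving out the Y-linked Kdm5d. The rule found 64 of the 23458 genes in the deposited count table. A filter on low counts kept 57 of them. The other 7 (Kdm4d, Prdm6, Prdm8, Prdm12, Prdm13, Prdm14 and Prmt8) reached at most 0.6 CPM (counts scaled to library size) in any library, and Prmt8 had no count in any, where 3 counts, the limit that a count of 0 allows, would be 0.118 to 0.608 CPM.

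Methyl marks on histone lysines are written by SET domain enzymes and DOT1L, and erased by the LSD1-type (Kdm1) and JmjC-type (Kdm2 to Kdm8) demethylases. Methylated H3K4 marks active promoters, H3K36 and H3K79 methylation lie over transcribed genes, and H3K9, H3K27 and H4K20 methylation accompany repression. Polycomb repressive complex PRC2 (Ezh1 or Ezh2 with Suz12 and Eed, and Jarid2 as an accessory subunit) writes H3K27 methylation, which Kdm6a and Kdm6b remove. In blood cells, loss of EZH2, ASXL1, PHF6, KDM6A or SETD2 recurs in human leukemia, as does loss of the DNA methyltransferase DNMT3A.

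RNA was sequenced from C57BL/6 mice in a pair of models of leukemia driven by FLT3-ITD, an activating internal tandem duplication of a receptor tyrosine kinase. In the retroviral model, Mx1-cre+ donor marrow was transduced with MSCV vectors and transplanted into irradiated recipients, from which CD4+CD8+ cells of donor origin were isolated by sorting. Its groups were Dnmt3a+/+ with MSCV_GFP (WT-GFP, normal thymocytes, n = 2), Dnmt3a f/f with MSCV_GFP (KO-GFP, n = 2), Dnmt3a+/+ with MSCV_FLT3-ITD-GFP (WT-ITD, leukemia, n = 3) and Dnmt3a f/f with MSCV_FLT3-ITD-GFP (KO-ITD, leukemia, n = 4). In the knock-in model, bulk marrow without a sort came from Flt3+/ITD animals: ER-cre-; Dnmt3a f/f (pre-leukemic, n = 3), ER-cre+; Dnmt3a f/+ (leukemia, n = 2) and ER-cre+; Dnmt3a f/f (leukemia, n = 1). All retroviral groups carry Mx1-cre, which acts well beyond blood stem cells, and all knock-in groups carry at least 1 floxed Dnmt3a allele and the Flt3 duplication. WT-ITD 2, KO-ITD 1 and KO-ITD 2 were marrow samples, and all other retroviral libraries were thymus. Donor marrow was enriched for Sca-1 in KO-ITD and WT-ITD 1 and for ckit in KO-GFP and WT-ITD 2, and was whole in WT-ITD 3. KO-ITD 3 and 4 and all knock-in samples form a second submission of 8 libraries. Ages, doses and times are not given, and nothing ties a replicate to an animal, so p-values measure the spread between these libraries.

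Across the 17 libraries the total count was 4933890 to 25331908. Dnmt3a was lower in every library with a floxed allele and Cre than in every library of its reference group: 144 to 207 against 250.1 to 257 CPM in GFP thymocytes, 53.0 to 127 against 180.2 to 238 CPM in retroviral leukemias, and 36.5 to 54.96 against 129.6 to 153 CPM in the knock-in model. These counts include exons outside the floxed part. Markers of the sorted double-positive cells were lower in the leukemias: the mean log2 CPM of 12 such genes was 9.66 to 9.78 in the GFP groups, 9.08 to 9.36 in WT-ITD and 7.36 to 8.83 in KO-ITD. Other cell types differed in both directions. The mean of 9 erythroid genes was -0.53 to 1.04 in GFP thymocytes and 4.72 to 6.14 in KO-ITD, and that of 8 stromal genes was -0.92 to -0.37 and 3.77 to 7.38, highest in KO-ITD 4. The mean of 9 B cell genes was 1.49 to 2.29 in GFP thymocytes, -1.47 to 2.34 in WT-ITD and -0.49 to 3.09 in KO-ITD, and that of 9 monocyte genes was 2.39 to 2.73, 0.6 to 3.38 and 2.95 to 6.47. The part of these lists in the results was not tested. KO-ITD 4 had the lowest mean of 16 cell cycle genes (5.89, against 7.3 to 8.3 in the other 16 libraries). Xist, expressed from the inactive X chromosome, was at 1234 to 2839 CPM in all GFP libraries, WT-ITD 3 and KO-ITD 2, and no more than 2.26 CPM elsewhere, in the other 11 libraries. In bulk samples, fewer cells of a type and less RNA per cell cannot be told apart.

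**Figure D1:**
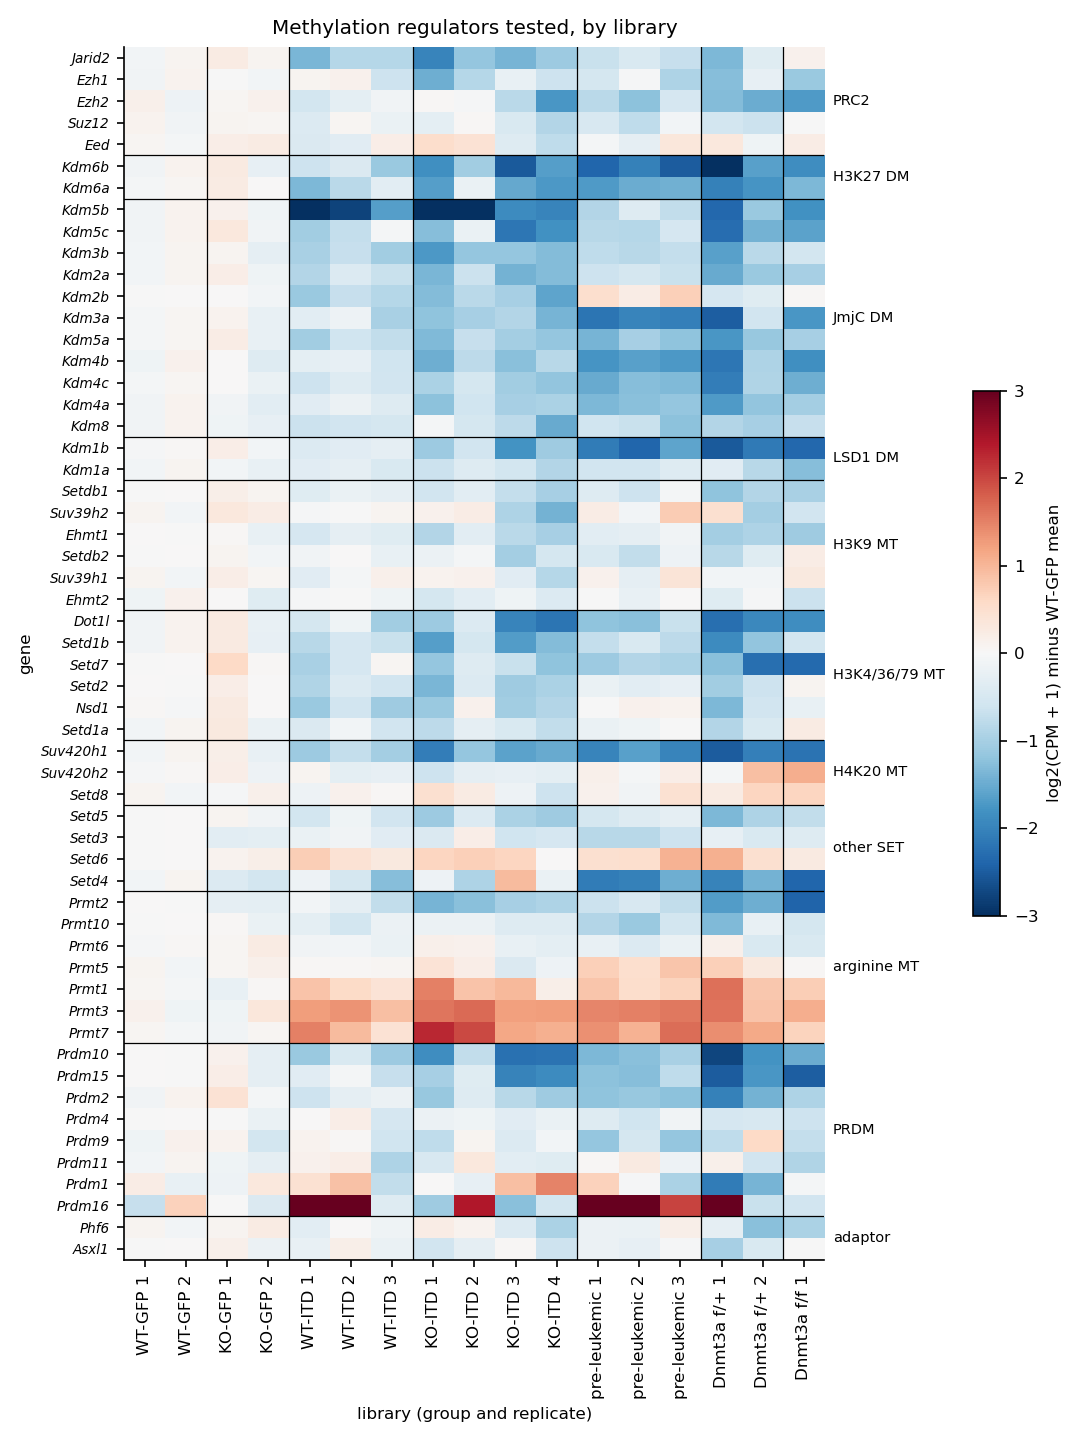
Level of 56 of the 57 tested regulators (rows, grouped by enzyme class, MT for methyltransferase and DM for demethylase) in each of the 17 libraries (columns), as log2(CPM + 1) minus the mean of the WT-GFP libraries; the colour scale ends at -3 and 3. Most demethylases and lysine methyltransferases are below the thymocyte level in KO-ITD and knock-in libraries, while Prmt1, Prmt3 and Prmt7 are above it.

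Members differed in their own level. Per kilobase of exon, Ezh2, the catalytic subunit of PRC2, was the highest in normal thymocytes, at 109 ± 17.1 CPM per kb (SD, n = 2) in WT-GFP and 117 ± 3.52 (n = 2) in KO-GFP. Prmt1, the main enzyme for asymmetric arginine dimethylation, was next at 89.1 ± 4.83 and 83.3 ± 10.9 CPM per kb, and the PRC2 subunit Suz12 followed at 73.7 ± 7.81 and 77.0 ± 0.40. In both retroviral leukemia groups the order of the first pair was turned. Prmt1 was at 138 ± 22.7 (n = 3) in WT-ITD and 174 ± 63.5 (n = 4) in KO-ITD, against 87.5 ± 13.6 and 77.6 ± 37.4 CPM per kb for Ezh2. Prmt1 was also the highest member per kilobase in all 3 knock-in groups, at 142.6 ± 14.5 in pre-leukemic marrow. Ezh2 and Prmt1 in WT-GFP, and Ezh2 and Suz12 in KO-ITD, lay about as close together as their spread. The longest transcript is 1508 bp for Prmt1 and 2652 bp for Ezh2. Shorter transcripts were shifted up in the retroviral leukemias, as given below, and the part of length in this order was not tested.

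KO-ITD leukemias were compared with KO-GFP thymocytes, which asks what differs in FLT3-ITD leukemia on a Dnmt3a-deleted background. Donor enrichment, for Sca-1 in KO-ITD and ckit in KO-GFP, cannot be told apart from FLT3-ITD here. All KO-GFP libraries were thymus of the first submission, while KO-ITD 1 and 2 were marrow and KO-ITD 3 and 4 were of the second submission. With a quasi-likelihood fit in edgeR, p-values adjusted by Benjamini-Hochberg over all 15508 genes and a threshold of 0.05, 19.6% of all genes differed. Among members, 23 of 57 were lower (40.4%, against 9.85% of all genes tested) and 3 were higher (5.26%, against 9.8%). The median log2 fold change was -0.64 over members and 0.19 over all genes. The fallen members were demethylases (11 of 15), the H3K4, H3K36 and H3K79 methyltransferases (5 of 6), H3K9 methyltransferases (2 of 6), PRDM proteins (2 of 9), and 1 each of PRC2, the H4K20 methyltransferases and the other SET domain proteins. The 3 risen members were all arginine methyltransferases.

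These counts rest on few control libraries. Without KO-GFP 1, no member passed the threshold (against 0.949% of all genes), and without KO-GFP 2, 1 rose and 10 fell (1.75 and 17.5%, against 1.74 and 4.18% of all genes). With Xist status as a term, 1 rose (Prmt3, 1.75%, against 1.9% of all genes) and 2 fell (Kdm3b and Suv420h1, 3.51%, against 1.88%). Calls over all genes dropped as well, to 3.77% from 19.6%. All GFP libraries expressed Xist, and of the leukemias only WT-ITD 3 and KO-ITD 2 did. The term thus overlaps with the groups, and this fit cannot tell its part in the fallen members. With only the KO-ITD and KO-GFP libraries in the fit, 1 rose (Prmt3; 1.75%, against 1.56%) and 3 fell (Jarid2, Kdm3b and Suv420h1; 5.26%, against 1.81%). Every one of these 26 members kept its direction under all 16 other settings. Leaving out KO-ITD 2, which expressed Xist, gave 3 risen and 27 fallen members (5.26 and 47.4%, against 13% and 12.5% of all genes).

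In the same comparison without deletion, WT-ITD leukemias against WT-GFP thymocytes, only 1 member passed the threshold: Prmt3 was higher (1 of 57, 1.75%, against 1.35% of all genes higher and 2.24% changed), and none was lower (0 of 57, against 0.89% of all genes). At an unadjusted p below 0.05 there were 11 members (19.3%, against 17.7% of all genes). DESeq2 called 1 higher and 6 lower (1.75 and 10.5%, against 5.34 and 3.85% of all genes), and limma voom 1 higher and 5 lower (1.75 and 8.77%, against 2.17 and 3.48%). The median log2 fold change was -0.34 over members and 0.03 over all genes. WT-ITD 2 was marrow, while WT-GFP was thymus. Donor enrichment differed within WT-ITD, and its part in this comparison was not tested. Levels did not overlap between the groups for 36 members, 32 lower (56.1%, against 24.9% of all genes) and 4 higher (7.02%, against 20.9%). In KO-ITD against KO-GFP, 32 members were lower without overlap (56.1%, against 21.8% of all genes) and 3 higher (5.26%, against 22.9%). The difference between the fold changes, tested as an interaction, passed the threshold in edgeR for no member and no gene (0% of 15508). No member had an unadjusted p below 0.05 for it (against 5.4% of all genes). DESeq2 and limma voom called no member for it, against 0.516% and 0% of all genes. The calls in 1 comparison and not in the other are thus no shown difference.

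**Figure D2:**
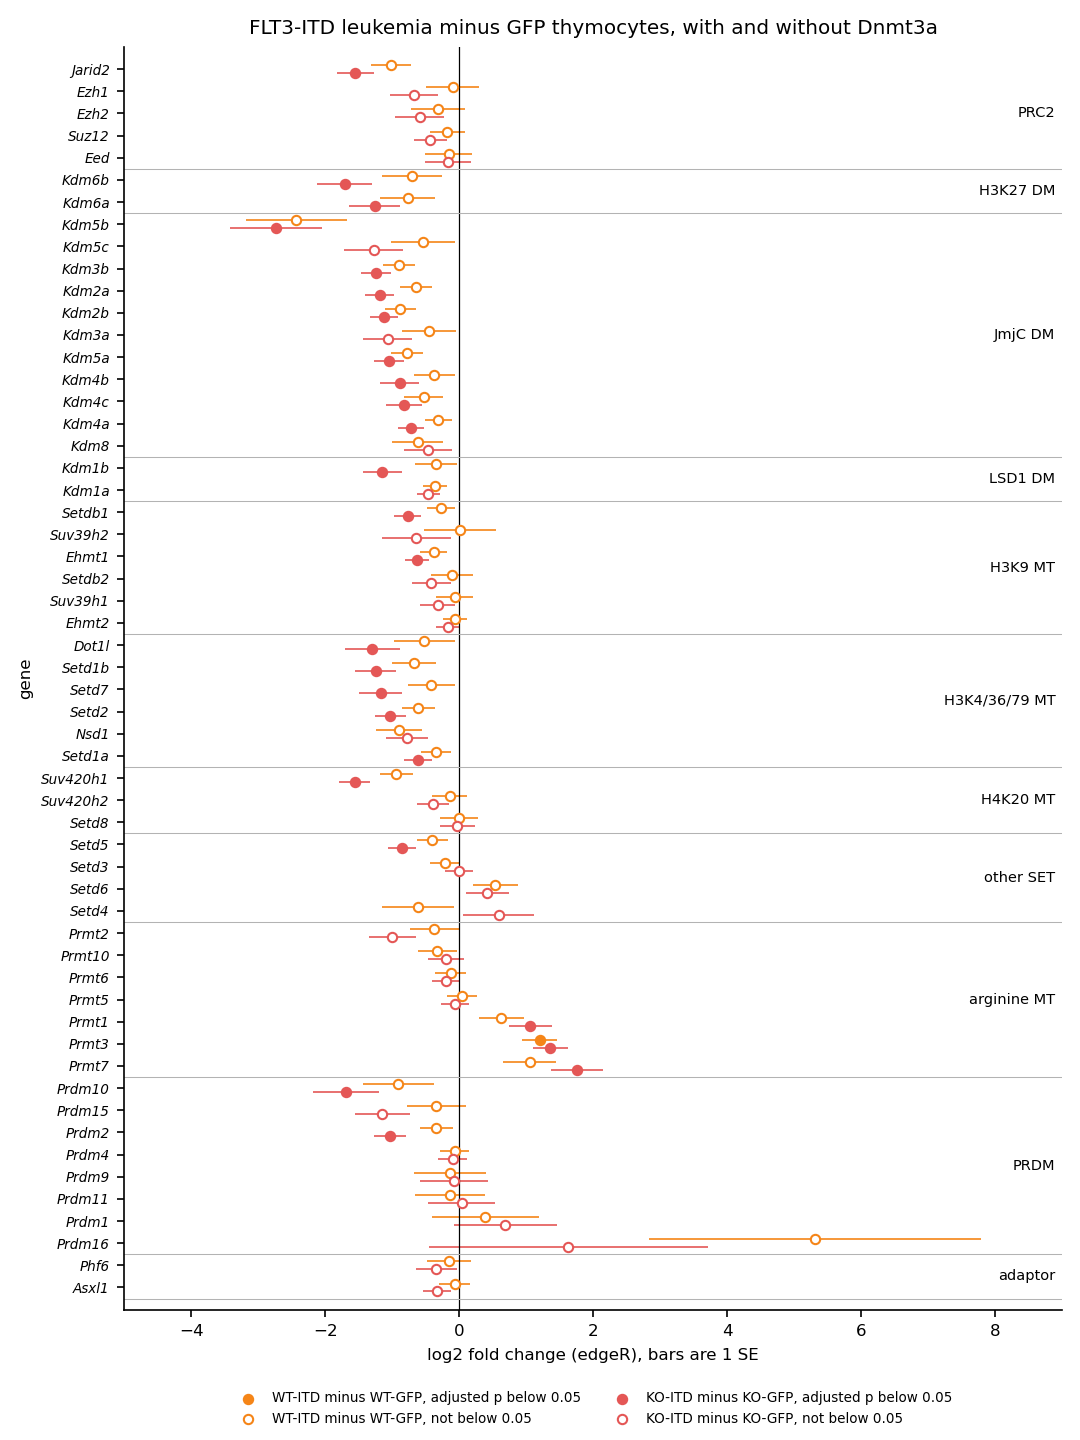
Log2 fold change of 56 of the 57 tested members (edgeR, bars 1 SE) in WT-ITD minus WT-GFP (n = 3 and 2) and KO-ITD minus KO-GFP (n = 4 and 2); filled points passed an adjusted p of 0.05. Points of both comparisons lie on the same side of 0 for most members, with Prmt1, Prmt3 and Prmt7 to the right and Kdm5b farthest to the left.

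Of 7 tested arginine methyltransferases, 3 rose in KO-ITD, and their promoters are shown here because these members moved together. The 250 bases before the start site are from RefSeq on build GRCm38.p6, read 5′ to 3′ on the strand of the gene: Prmt1 at chr7:44986421-44986670 (minus strand), Prmt3 at chr7:49778108-49778357 (plus strand) and Prmt7 at chr8:106210804-106211053 (plus strand). Capitals mark CACGTG, the E-box hexamer read by basic helix-loop-helix factors, which is its own reverse complement.
Prmt1: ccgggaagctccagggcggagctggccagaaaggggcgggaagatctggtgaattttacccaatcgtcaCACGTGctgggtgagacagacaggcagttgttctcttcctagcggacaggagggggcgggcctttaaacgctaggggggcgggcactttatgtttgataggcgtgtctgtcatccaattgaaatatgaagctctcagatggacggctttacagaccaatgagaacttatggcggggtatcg
Prmt3: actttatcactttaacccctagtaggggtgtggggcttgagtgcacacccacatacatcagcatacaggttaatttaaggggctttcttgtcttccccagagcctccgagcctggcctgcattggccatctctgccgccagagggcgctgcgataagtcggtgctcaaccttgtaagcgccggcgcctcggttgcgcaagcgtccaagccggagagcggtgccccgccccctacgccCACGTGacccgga
Prmt7: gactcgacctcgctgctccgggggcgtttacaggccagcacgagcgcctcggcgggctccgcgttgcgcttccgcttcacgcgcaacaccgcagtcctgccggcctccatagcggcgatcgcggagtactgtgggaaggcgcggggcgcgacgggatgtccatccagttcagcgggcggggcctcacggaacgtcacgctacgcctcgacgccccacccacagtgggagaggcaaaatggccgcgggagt
The hexamer is in the windows of Prmt1 and Prmt3 and not in that of Prmt7. With the 50 bases after the start site included, it was found for 6 of the 52 members that have a RefSeq window (11.5%), and for 8.09% of all 27025 genes with one.

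Prmt3, which methylates a protein of the small ribosomal subunit, measured 36.9 and 30.9 CPM in WT-GFP libraries, 30.9 and 42.7 in KO-GFP, 82.0, 87.7 and 64.5 in WT-ITD and 105.6, 111, 80.8 and 81.4 in KO-ITD. Every leukemia was above every thymocyte library. Its log2 fold change was 1.20 ± 0.26 (SE) in WT-ITD (adjusted p = 0.0338, edgeR; lost without either WT-GFP library, WT-ITD 1 or WT-ITD 2, with the Xist term and in thymus libraries alone) and 1.36 ± 0.26 in KO-ITD (adjusted p = 0.00574, edgeR). Prmt7, a monomethylating enzyme, measured 32.9 and 30.3 CPM in WT-GFP libraries and 29.2 and 33.2 in KO-GFP. The leukemias had 91.6, 61.7 and 42.7 CPM (WT-ITD) and 156, 127, 71.8 and 67.0 CPM (KO-ITD), again without overlap. The log2 fold change was 1.76 ± 0.39 in KO-ITD (adjusted p = 0.0108, edgeR) and 1.05 ± 0.39 in WT-ITD (adjusted p = 0.182, edgeR). Prmt1 measured 139.5 and 129 CPM in WT-GFP libraries, 114 and 137 in KO-GFP, 245, 200.3 and 177 in WT-ITD, and 385, 243, 266 and 153 in KO-ITD. It was 2.08-fold higher in KO-ITD than in KO-GFP (log2 1.06 ± 0.32, adjusted p = 0.0379, edgeR), with KO-ITD 4 the closest to the thymocytes. This call was lost in 8 of 16 other settings, among them removal of each library's trend with transcript length.

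The other arginine methyltransferases did not pass the threshold in either comparison. Prmt5, the main symmetric dimethylating enzyme, was at 91.3 to 108 CPM in thymocytes, 99.8 to 101 in WT-ITD and 72.04 to 130.1 in KO-ITD, with log2 fold changes of 0.04 ± 0.23 and -0.06 ± 0.21. Prmt6 and Prmt10, named after their values were seen, lay within 0.33 of 0 on the log2 scale in both comparisons. Prmt2 was lower in both, by 0.37 ± 0.37 and 1.00 ± 0.35 (adjusted p = 0.0584 in KO-ITD, edgeR).

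**Figure D3:**
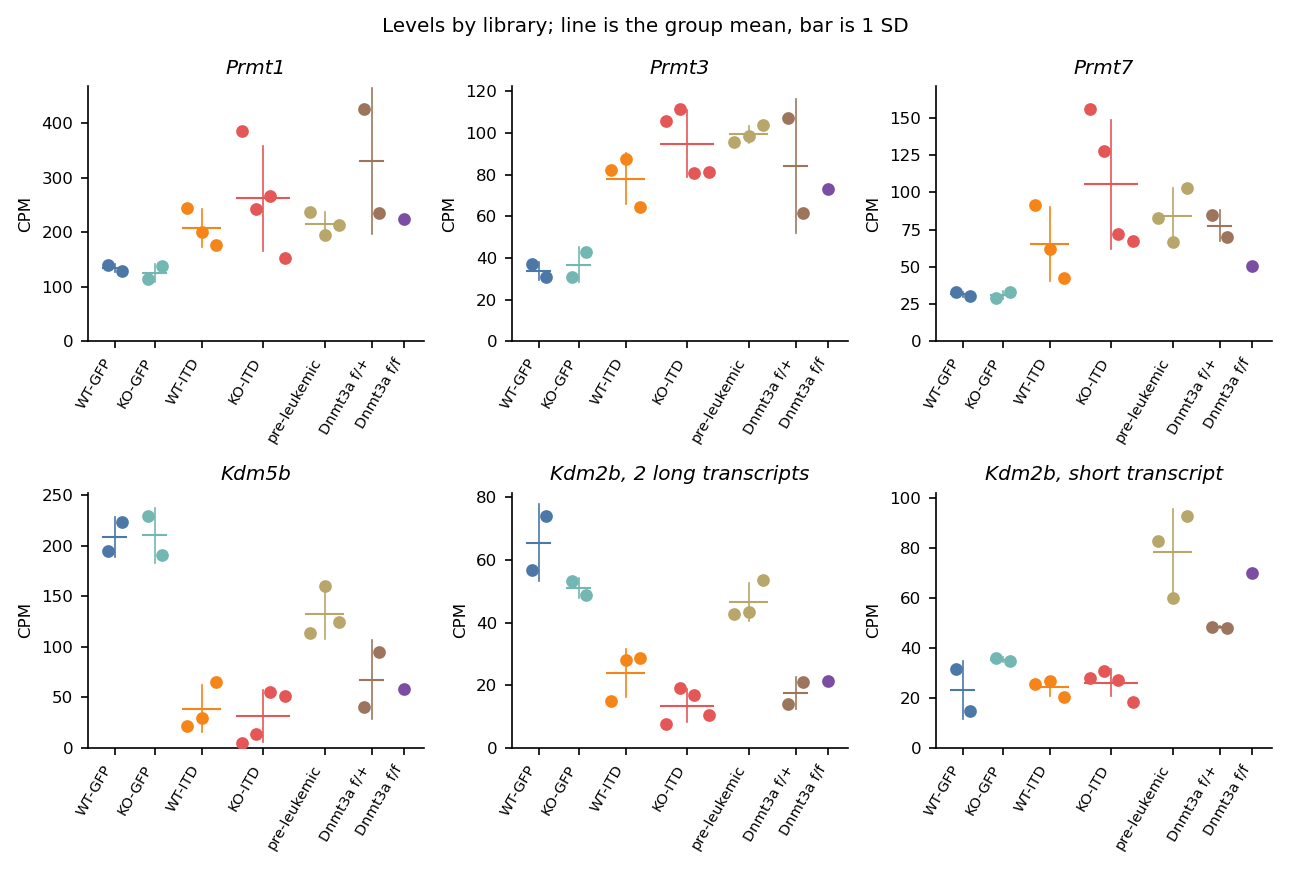
CPM of Prmt1, Prmt3, Prmt7, Kdm5b and the Kdm2b transcripts in each library (points) by group, with the group mean (horizontal line) and 1 SD (vertical bar). Prmt3 and Prmt7 are higher and Kdm5b is lower in every retroviral leukemia than in every GFP library; the long Kdm2b transcripts show the same split and the short one does not.

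Among H3K4 demethylases, Kdm5b (mm9 chr1:136456755-136529455, plus strand) had the largest fall of any member that passed the threshold. The thymocytes had 195 and 223 CPM (WT-GFP) and 229.9 and 191 CPM (KO-GFP). The WT-ITD leukemias had 21.8, 29.5 and 65.3 CPM, and the KO-ITD leukemias 5.22, 13.9, 55.5 and 51.8. Both marrow KO-ITD leukemias were below both thymic ones, where tissue and submission cannot be told apart, and the marrow WT-ITD leukemia (29.5 CPM) lay between the thymic ones. The log2 fold change was -2.74 ± 0.69 in KO-ITD (adjusted p = 0.0174, edgeR) and -2.43 ± 0.75 in WT-ITD (adjusted p = 0.113, edgeR). Its paralog Kdm5a was at 337 to 466 CPM in thymocytes, 193 to 264 in WT-ITD and 157 to 246 in KO-ITD, 2.07-fold lower in KO-ITD (log2 -1.05 ± 0.23, adjusted p = 0.00986, edgeR). Kdm5a overlaps an exon of Ccdc77 on the opposite strand, and strand use in counting is not given, so its counts may include reads of that gene.

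The H3K27 demethylase Kdm6b (mm9 chr11:69212020-69227177, minus strand) was at 296, 345, 386 and 268 CPM in the GFP libraries, 207, 236 and 148 in WT-ITD and 88.1, 155, 55.1 and 102 in KO-ITD. It fell by 1.71 ± 0.41 on the log2 scale in KO-ITD (adjusted p = 0.0151, edgeR). Of the 11 other JmjC demethylases tested, 8 fell, Kdm5b and Kdm5a among them. Kdm3b fell by 1.24 ± 0.22 in KO-ITD (adjusted p = 0.00461, edgeR), from 394 and 309 CPM in KO-GFP to 112, 166, 167 and 149. Kdm2a fell by 1.19 ± 0.22, Kdm1b of the LSD1 type by 1.15 ± 0.29 and Kdm4b by 0.89 ± 0.29. Kdm1a (LSD1), a corepressor subunit, was at 153 to 189.8 CPM in thymocytes and 96.7 to 137 in KO-ITD without passing the threshold (log2 -0.46 ± 0.17, adjusted p = 0.0755, edgeR). Kdm1b overlaps an exon of Dek on the opposite strand, with the same limit.

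Kdm2b (mm9 chr5:123320685-123439101, minus strand) brings a variant PRC1 complex to unmethylated CpG islands. It was at 83.5 to 89.4 CPM in the 4 GFP libraries, 40.7, 54.6 and 48.9 in WT-ITD and 35.5, 50.01, 44.0 and 28.9 in KO-ITD. It fell by 1.12 ± 0.21 on the log2 scale in KO-ITD (adjusted p = 0.00604, edgeR) and was lower by 0.88 ± 0.23 in WT-ITD (adjusted p = 0.0652, edgeR). The deposited transcript counts split the gene into 2 long forms, with coding sequences of 3927 and 3909 bases, and a short form of 2328 bases that starts inside the gene and is known to lack the demethylase domain. These are model estimates from reads that the forms mostly share, so they are given without a test. The short form took 16.7 to 41.5% of the gene's counts in GFP thymocytes, 41.4 to 63.1% in WT-ITD and 61.9 to 78.4% in KO-ITD. As a level, the long forms together were at 48.8 to 74.1 CPM in thymocytes and 7.67 to 28.6 CPM in the 7 leukemias. The short form was at 14.9 to 36.04 and 18.5 to 31.0 CPM. So the lower level of the gene lay in the long forms, and the short form overlapped between thymocytes and leukemias.

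In the knock-in model the short form was the larger part in every library, as it was in KO-ITD and WT-ITD 1. It made up 58 to 66% in pre-leukemic marrow, 69.5 and 77.6% in the Dnmt3a f/+ leukemias and 76.5% in the Dnmt3a f/f leukemia. Pre-leukemic marrow had 42.7 to 53.5 CPM of the long forms, and the 3 knock-in leukemias 14.02 to 21.5. The short form was at 59.9 to 93.0 CPM in pre-leukemic marrow, 48.6 and 48.0 in the Dnmt3a f/+ leukemias and 69.9 in the Dnmt3a f/f leukemia. Here the short form was thus also lower in the Dnmt3a f/+ leukemias, without overlap.

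Within PRC2, only Jarid2 (mm9 chr13:44826143-45017012, plus strand) passed the threshold. It was at 146, 161, 183 and 162 CPM in GFP thymocytes, 58.5, 84.5 and 83.8 in WT-ITD and 37.9, 68.3, 58.2 and 71.7 in KO-ITD, and fell by 1.55 ± 0.28 on the log2 scale (adjusted p = 0.00463, edgeR). The core subunits did not pass it. Ezh2 measured 304 and 318 CPM in KO-GFP libraries and 295, 283, 165 and 85.8 in KO-ITD, a log2 fold change of -0.59 ± 0.37 (adjusted p = 0.256, edgeR). Its lowest value was in KO-ITD 4, the library with the lowest cell cycle level and the highest stromal level, and their part in it was not tested. The log2 fold changes of Suz12, Eed and Ezh1 were -0.43 ± 0.24, -0.17 ± 0.34 and -0.68 ± 0.36. Asxl1 and Phf6, adaptors rather than enzymes, were within 0.34 of 0 in both comparisons.

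Of the lysine methyltransferases, Suv420h1 (mm9 chr19:3767421-3818303, plus strand), which writes H4K20 di- and trimethylation, had the lowest adjusted p of any member in KO-ITD. It was at 283, 320.2, 342 and 259 CPM in GFP thymocytes, 141, 184 and 148 in WT-ITD and 70.8, 134, 98.7 and 104 in KO-ITD, with no overlap. The log2 fold change was -1.56 ± 0.23 in KO-ITD (adjusted p = 0.00185, edgeR) and -0.94 ± 0.25 in WT-ITD (adjusted p = 0.0729, edgeR). Setd8 and Suv420h2, which act on the same residue and were named after their values were seen, had log2 fold changes of -0.03 ± 0.26 and -0.39 ± 0.24 in KO-ITD. Setd2, the H3K36 enzyme for trimethylation, fell by 1.03 ± 0.23 in KO-ITD, and Setd1b of the H3K4 COMPASS complexes by 1.25 ± 0.30. Dot1l, the H3K79 enzyme, fell by 1.30 ± 0.41 and Setd7 by 1.17 ± 0.32. Nsd1, which writes H3K36 dimethylation, was at 178, 422, 188 and 211 CPM in KO-ITD against 465 and 391 in KO-GFP, overlapped through KO-ITD 2 and did not pass (log2 -0.78 ± 0.32, adjusted p = 0.0954, edgeR). Of the H3K9 methyltransferases, Ehmt1 fell by 0.63 ± 0.18, while Ehmt2, Suv39h1 and Suv39h2 had log2 fold changes of -0.17 ± 0.17, -0.32 ± 0.26 and -0.64 ± 0.51.

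The PRDM proteins, which pair a SET-like domain with zinc fingers, included 2 that fell. Prdm10 fell by 1.69 ± 0.49 and Prdm2 by 1.04 ± 0.24 in KO-ITD. Prdm16, needed by blood stem cells, was at 78.1 and 117 CPM in WT-ITD 1 and 2 and 0.80 in WT-ITD 3. The KO-ITD leukemias had 0.13, 11.6, 0 and 0.61 CPM and the GFP thymocytes 0.48 to 2.80. In the knock-in model it was at 24.5, 52.8 and 8.68 CPM in pre-leukemic marrow, 75.5 and 0.50 in the Dnmt3a f/+ leukemias and 0.59 in the Dnmt3a f/f leukemia. High and low levels thus occurred within the same leukemia group, and no comparison of Prdm16 passed the threshold (adjusted p of 0.287 in WT-ITD, edgeR). Prdm1 (Blimp-1), a repressor of lymphocyte programmes, was at 0.32 to 14.9 CPM over all libraries and passed no test either.

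Transcript length moved with these changes. Over all genes, the median log2 fold change in KO-ITD against KO-GFP was 0.82 for a longest transcript of at most 1500 bp, 0.34 to 2500 bp, 0.00 to 4000 bp, -0.24 to 6000 bp and -0.45 above that. In the same bins 1.91%, 4.43%, 10.4%, 17.2% and 24.2% of genes were lower, and 21.1%, 10.5%, 6.21%, 5.16% and 4.73% were higher. The 3 risen members were all in the bin from 1500 to 2500 bp (3 of 11). The 57 members were long, with a median of 4373 bp against 2746 bp over all genes tested, and 22 of the 23 fallen members were in the last 2 bins (11 of 18 and 11 of 16). There the members' medians were -0.74 and -1.16. The shift was smaller in WT-ITD, from 0.37 in the shortest bin to -0.27 in the longest. By library, the median of genes above 6000 bp relative to WT-GFP was -0.67, -0.19, -0.53 and -0.38 in KO-ITD, -0.44, -0.22 and -0.24 in WT-ITD, -0.03 to 0.00 in pre-leukemic marrow, -0.64 and -0.40 in the Dnmt3a f/+ leukemias and -0.07 in the Dnmt3a f/f leukemia.

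A fit with the length trend of each library removed was added after the data were seen. In it, 2 members rose in KO-ITD against KO-GFP (Prmt3 and Prmt7, 3.51%, against 5.63% of all genes). Another 12 fell (21.1%, against 6.67%): Jarid2, Kdm1b, Kdm2a, Kdm2b, Kdm3b, Kdm5b, Kdm6b, Prdm10, Prmt2, Setd1b, Setd2 and Suv420h1. Of these 14 calls, 13 were among the 26 above and Prmt2 was not. The median over members was then -0.46. Part of the trend remained in that fit. Over all genes, the median was 0.22 to 1500 bp and 0.01 above 6000 bp, and 4.43% and 9.28% were lower. Kdm5b fell by 2.37 ± 0.66, Suv420h1 by 1.21 ± 0.17 and Jarid2 by 1.21 ± 0.21 in that fit. Whether transcript length has a part in the share of the short Kdm2b form was not tested.

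**Figure D4:**
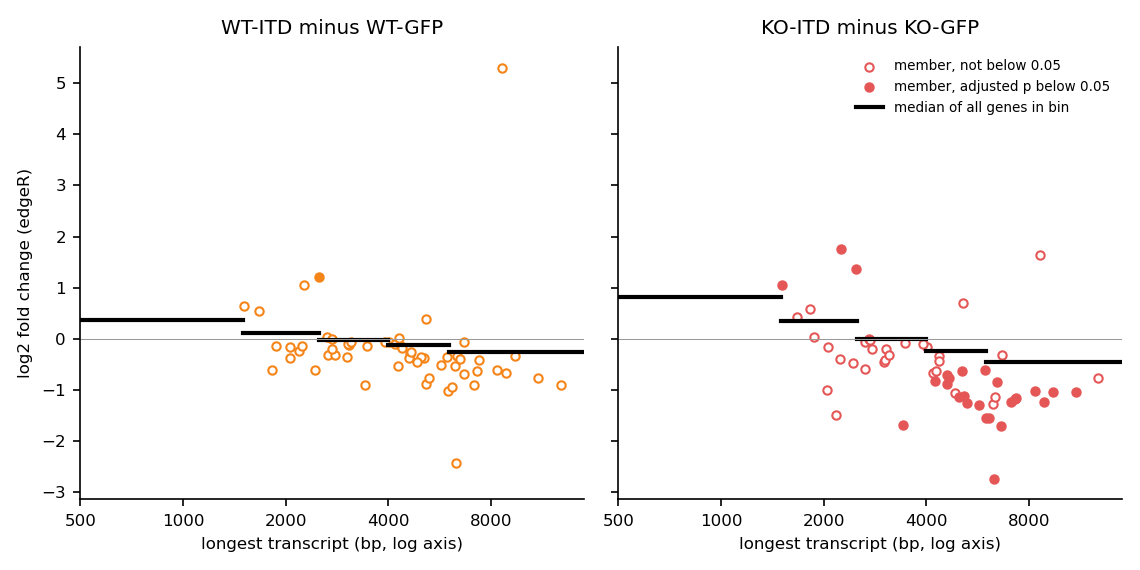
Log2 fold change (edgeR) of each tested member against its longest transcript (bp, log axis) in WT-ITD minus WT-GFP (left) and KO-ITD minus KO-GFP (right), with the median of all tested genes in 5 length bins as black lines. In the right panel the lines step down from 0.82 to -0.45, and most members above 4000 bp lie below their line.

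Xist status moved with the groups as well, since all GFP libraries but only WT-ITD 3 and KO-ITD 2 of the retroviral leukemias expressed it. The sex of the animals is not given. Ddx3y, a Y-linked gene, was at 0 to 0.06 CPM in the 6 libraries with Xist and 83.5 to 207 CPM in the other 11. Of 4 X-linked members, Kdm6a and Kdm5c are known to escape X inactivation in the mouse. Kdm6a was at 189, 204, 232 and 197 CPM in the GFP libraries, 76.8, 112 and 157 in WT-ITD and 62.0, 170.0, 67.0 and 58.5 in KO-ITD. The highest leukemia of each group was the one with Xist. Over the retroviral libraries, Kdm6a was at 157 to 232 CPM in the 6 with Xist and 58.5 to 112 in the 5 without, and Kdm5c at 224 to 322 and 57.1 to 158, with no overlap in either gene. Phf6 (116 to 151 and 65.8 to 150.3 CPM) and Suv39h1 (105 to 129 and 60.9 to 120.4 CPM) overlapped. In a fit with Xist status as a term, that term was 1.13 ± 0.19 for Kdm6a on the log2 scale (adjusted p = 0.101, edgeR) and 1.19 ± 0.27 for Kdm5c (adjusted p = 0.386, edgeR), the lowest p-values among the 57 members. The fall of Kdm6a in KO-ITD against KO-GFP was 1.26 ± 0.38 (adjusted p = 0.0356, edgeR) and was 0.56 ± 0.25 beside that term (adjusted p = 0.184, edgeR). Kdm5c was lower by 1.28 ± 0.44 (adjusted p = 0.057, edgeR) and by 0.55 ± 0.36 beside it.

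**Figure D5:**
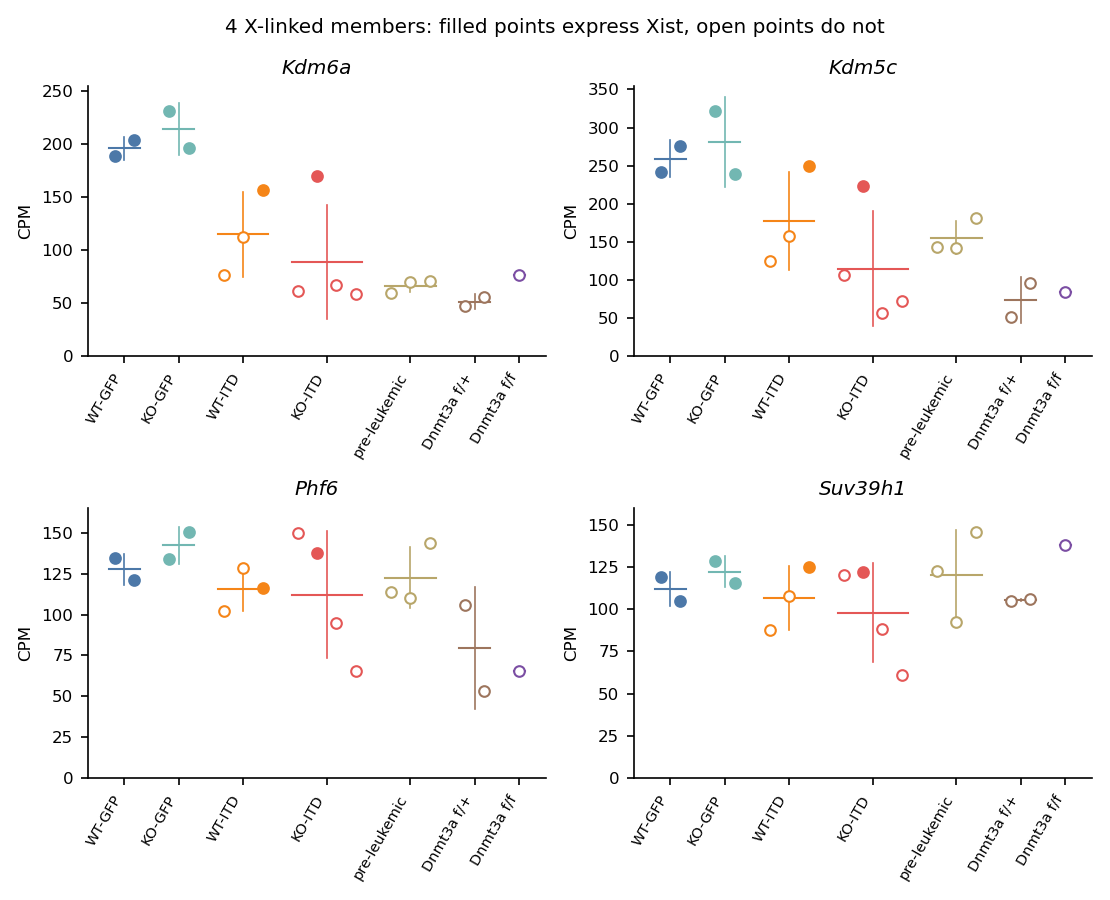
CPM of the 4 X-linked members in each library by group (line, mean; bar, 1 SD), with filled points for libraries that expressed Xist. For Kdm6a and Kdm5c the filled points of WT-ITD and KO-ITD stand near the GFP level and above the open points of their groups; for Phf6 and Suv39h1 filled and open points mix.

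Groups with and without Dnmt3a deletion were compared in thymocytes and in leukemias. The leukemia comparison does not isolate the deletion. Donor marrow was enriched for Sca-1 in all of KO-ITD, and for Sca-1, for ckit or not at all in WT-ITD. KO-ITD 3 and 4 were of the second submission and all WT-ITD libraries of the first. Between KO-GFP and WT-GFP no member passed the threshold in edgeR and no gene did (0% of 15508). No member had an unadjusted p below 0.05 (against 0.477% of all genes). DESeq2 and limma voom called no member, against 0.0774% and 0% of all genes. Log2 fold changes of members ran from -0.64 to 0.35 with a median of 0.02. Levels did not overlap for 8 members that were higher (14%, against 17.1% of all genes) and 6 that were lower (10.5%, against 20.8%). Between KO-ITD and WT-ITD no member passed (0 of 57, against 0.49% of all genes), 12 had an unadjusted p below 0.05 (21.1%, against 20.3% of all genes), DESeq2 called 2 (3.51%, against 8.31%) and limma voom none (against 1.19%). Members had a median log2 fold change of -0.30, against 0.07 over all genes, and 7 were lower without overlap (12.3%, against 6.24% of all genes), and 0 were higher (against 4.85%). Those lower included Suv420h1, Kdm1b, Kdm4b and Prmt2. Suv420h1 was 141, 184 and 148 CPM in WT-ITD against 70.8 to 134 in KO-ITD (log2 -0.63 ± 0.21, adjusted p = 0.159, edgeR). Without KO-ITD 2, 5 members passed, all lower (8.77%, against 2.23% of all genes, itself up from 0.284% with all libraries): Ehmt1, Kdm2a, Kdm4a, Kdm6a and Setd1b. They were named after their values were seen. Without KO-ITD 2 no KO-ITD library expressed Xist, while WT-ITD 3 did. The part of Xist status in these calls, among them the X-linked Kdm6a, was not tested. These comparisons share the KO-ITD, WT-ITD, KO-GFP and WT-GFP libraries with those above.

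In the knock-in model, Dnmt3a f/+ leukemias were compared with pre-leukemic marrow that lacks Cre. Kdm2b and Ehmt1 were lower (2 of 57, 3.51%, against 1.57% of all genes lower) and none was higher (0 of 57, against 3.43%). Kdm2b was at 125.5, 103 and 146 CPM in pre-leukemic marrow and 62.6 and 69.1 in the leukemias (log2 -0.93 ± 0.24, adjusted p = 0.0434, edgeR). Ehmt1, which writes H3K9 dimethylation with Ehmt2, was at 129, 133 and 149 CPM and then 78.4 and 83.1 (log2 -0.76 ± 0.20, adjusted p = 0.0471, edgeR). Both calls were lost when any 1 of the 5 libraries was left out and when the length trend was removed. Without Dnmt3a f/+ 1, Kdm3a alone passed and was higher, a gene named after its value was seen. The mean log2 CPM of 11 granulocyte genes was 5.86 to 6.79 in pre-leukemic marrow and 7.85 and 10.33 in these leukemias, and its part in the change was not tested.

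The single Dnmt3a f/f leukemia was compared with the same marrow on the assumption that it varies like the other groups. Prmt2 was lower (1 of 57, 1.75%, against 0.903% of all genes lower and 3.01% changed), at 1.18 CPM against 6.40, 7.35 and 5.96 (log2 -2.47 ± 0.56, adjusted p = 0.038, edgeR; lost without any 1 of the pre-leukemic libraries), and none was higher (0 of 57, against 2.11%). The Dnmt3a f/+ leukemias had 2.63 and 3.22 CPM. Prmt2 contains a microRNA gene on the same strand, Mir678, whose reads may be counted with it. Jarid2 was at 168.5 CPM in this leukemia against 94.7 to 112 in pre-leukemic marrow and 60.2 and 120.1 in Dnmt3a f/+ (log2 0.74 ± 0.37, adjusted p = 0.278, edgeR). Granulocyte genes had a mean log2 CPM of 10 here.

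Pre-leukemic marrow differs from WT-GFP thymocytes in model, cell type, tissue, submission and Xist status, which cannot be told apart. Here 16 of 57 members were lower (28.1%, against 16.7% of all genes) and 3 higher (5.26%, against 15.1%). The 3 higher members were arginine methyltransferases, Prmt3 by 1.55 ± 0.27, Prmt7 by 1.42 ± 0.40 and Prmt5 by 0.69 ± 0.23 on the log2 scale, while another, Prmt10, was lower by 0.85 ± 0.28. The largest falls were in Kdm6b (2.31 ± 0.45), Kdm3a (2.09 ± 0.40), Setd4 (2.08 ± 0.55), Kdm1b (2.01 ± 0.31) and Suv420h1 (1.86 ± 0.25). Kdm3a was at 71.8, 84.3 and 79.4 CPM against 320.5 and 348. Kdm2b, in contrast, was at 103 to 146 CPM against 88.3 and 88.9 (log2 0.50 ± 0.24, adjusted p = 0.121, edgeR). With Xist status as a term, 1 member was higher and 6 were lower (1.75 and 10.5%, against 6.6 and 9.31% of all genes), so the share of lower members was then near that of all genes.

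Genes that work with the members were read from lists of PRC1, PRC2, MLL/COMPASS, DOT1L and ASXL partners, other methyltransferases, other demethylases and readers, 101 genes tested in all. In KO-ITD against KO-GFP, 26 were lower (25.7%, against 9.85% of all genes) and 1 was higher (0.99%, against 9.8%). The median was -0.53, against 0.19 over all genes. The MLL/COMPASS list held 7 lower of 14, the other demethylases 5 of 16, the other methyltransferases 4 of 13, PRC1 3 of 18, readers 3 of 16, and the ASXL and DOT1L lists 2 of 8 and 2 of 10, while none of 6 further PRC2 partners passed. The gene that rose was Smyd2, a lysine methyltransferase of histones and p53, by 2.94 ± 0.55 on the log2 scale, to a mean of 121 CPM from 15.8. Its relative Smyd1 fell by 2.15 ± 0.50, and the demethylase Phf2 and the JmjC protein Hspbap1 by 1.64 ± 0.19 and 2.32 ± 0.40. L3mbtl3, a methyl-lysine reader, fell by 2.01 ± 0.49 and Ogt, a glycosyltransferase partner of ASXL complexes encoded on the X chromosome, by 1.61 ± 0.37. In WT-ITD against WT-GFP, 1 of the 101 was higher (0.99%, against 1.35% of all genes) and 3 were lower (2.97%, against 0.89%). Smyd2 rose by 4.04 ± 0.59, and Smyd1, Phf2 and Mbtd1 fell by 2.57 ± 0.55, 0.88 ± 0.20 and 0.81 ± 0.15.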

How the data were processed

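Poly-A RNA was sequenced from 19 samples in 7 groups, deposited as 17 libraries, since the T1 and T2 technical runs of each of the 2 WT-GFP libraries share a column. The authors deposited expected counts per transcript and gene; the submitters' processing notes name build mm9, TopHat2 2.0.10, Cufflinks 2.1.1 and Cuffdiff 2.1.1 and 2.2.1. The sources used here do not give which tool wrote the counts, the filters or the use of strand. Between 98.12 and 98.54% of nonzero deposited estimated counts were whole (within 0.001), and all were rounded. Totals per library were 4933890 to 25331908, which limits the precision of low genes. Deposited FPKM values came from separate assemblies and were not used.

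Counts were scaled by TMM (factors 0.943 to 1.076) and fitted in R 4.3.3 with edgeR 4.0.16 (quasi-likelihood, all 17 libraries, 15508 genes after filterByExpr). P-values were adjusted by Benjamini-Hochberg over all genes, with a threshold of 0.05. CPM are TMM-scaled. Alternatives were DESeq2 1.42.0, limma 3.58.1 voom, DESeq2 size factors, no low-count filter, a replicate block, Xist status as a term (expressed above 100 CPM), only the groups compared, 1 submission, thymus only, each library left out, and, added after the data were seen, removal of each library's trend with transcript length (lowess, span 0.3). The fit was tested on simulated data. All members past the threshold could be named, or the 20 largest changes where more passed, with 23 members nameable always and up to 6 genes of the partner lists per comparison. Members and lists were chosen with earlier results of these data known. Promoter windows are from RefSeq (GRCm38.p6), matched by symbol or synonym. Values of 1 tested member are not reported here singly.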

Additional observations from a re-analysis of the deposited data

Results flagged for a closer look

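Within the 4 KO-ITD leukemias, 9 of 57 members had 1 library farther from the others than Dixon's 95% critical value allows, where chance flags about 1 in 20. That is 15.8% of members, against 17.4% of all genes tested in the same libraries. Of these, 7 were in KO-ITD 2 (12.3% of members, against 1.82% of all genes), each higher than in the other libraries of the group: Kdm2a at 222.54 CPM, Kdm6a at 169.99, Nsd1 at 421.55, Prdm10 at 12.59, Prdm16 at 11.6, Setd3 at 183.57 and Setd5 at 216.05. KO-ITD 2 was also the KO-ITD library that expressed Xist, and its median shift of genes above 6000 bp (-0.19) was the smallest of the 4; their part in these values was not tested. Setd6 was at 9.83 CPM in KO-ITD 4 and Suv420h2 at 33.85 CPM in KO-ITD 1. KO-ITD 4 held 11.4% of all genes as such values, against 1.75% of members.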

How the results depend on the processing

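No single member changed direction in a call under any setting run, 232 member values lost their call, 115 gained one and 6385 kept their side of the threshold. In WT-ITD against WT-GFP, 1 member was called (1.75%, against 2.24% of all genes). There were 7 calls with DESeq2 (12.3%, against 9.19%), 6 with limma voom (10.5%, against 5.65%) and 2 with DESeq2 size factors (3.51%, against 2.28%). The Xist term gave 0 (against 1.17%), only the groups compared 6 (10.5%, against 7.18%) and the first submission 5 (8.77%, against 9.62%). Thymus alone gave 3 (5.26%, against 2.08%) and removal of the length trend 2 (3.51%, against 2.34%). Without 1 WT-ITD library there were 0 to 1 (0 to 1.75%, against 0.801 to 3.93%). In KO-ITD against KO-GFP, 26 were called (45.6%, against 19.6% of all genes). There were 3 with the Xist term (5.26%, against 3.77%), 4 with only the groups compared (7.02%, against 3.38%) and 14 with the length trend removed (24.6%, against 12.3%). DESeq2 called 31 (54.4%, against 32.3%) and limma voom 28 (49.1%, against 20.4%). Thymus alone gave 31 (54.4%, against 28.7%), where KO-ITD was all of the second submission. The first submission gave 19 (33.3%, against 27.6%), where KO-ITD was all marrow. Without 1 KO-ITD library there were 17 to 30 (29.8 to 52.6%, against 15 to 25.5%). Fewest were called without a KO-GFP library, as given above, which leaves 1 library in that group. In KO-ITD against WT-ITD, 0 were called (against 0.49% of all genes). There were 2 with DESeq2 (3.51%, against 8.31%), 5 without KO-ITD 2 (8.77%, against 4.14%) and 0 without any other library. In Dnmt3a f/+ against pre-leukemic marrow, 2 were called (3.51%, against 5% of all genes). DESeq2 called 8 (14%, against 15.4%). There were 0 with no filter (against 2.84%), with only the groups compared (against 1.2%) and with the length trend removed (against 2.44%). Leaving out a pre-leukemic library also gave 0 (against 0.247 to 0.815%). For the single Dnmt3a f/f leukemia, 1 was called (1.75%, against 3.01% of all genes). There were 5 with DESeq2 (8.77%, against 11.7%), 0 with no filter (against 1.8%) and 12 with only the groups compared (21.1%, against 27.1%). With a pre-leukemic library left out there were 0 (against 0.234 to 0.589%). Each of these shares was below that of all genes. In pre-leukemic marrow against WT-GFP (19 called) there were 7 with the Xist term, 37 with only the groups compared, and 10 to 14 with a library left out. The 19 were 33.3% of members, against 31.9% of all genes. With the Xist term the share was 12.3% (against 15.9%), and with only the groups compared 64.9% (against 63.8%). Without a pre-leukemic library it was 22.8 to 24.6% (against 22.3 to 25%). Counting both directions, members were thus called at about the rate of all genes in these fits. Leaving out a WT-GFP library leaves 1 library in that group. KO-GFP against WT-GFP and the interaction gave 0 member calls throughout, where DESeq2 called 0.0774% and 0.516% of all genes. The causes were not tested.

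Same-numbered samples share only a number: correlations of their deviations ran from -0.224 to 0.369. With the replicate block, the pairing by number gave 4 calls in WT-ITD against WT-GFP (7.02%, against 3.66% of all genes). It gave 19 in KO-ITD against KO-GFP (33.3%, against 15.7%) and 1 for Dnmt3a f/+ (1.75%, against 4.97%). Pre-leukemic marrow against WT-GFP had 19 (33.3%, against 32.9%). Groups of 1 to 4 libraries limit all of these counts, and members near 1 CPM, such as Prdm16 in thymocytes, rest on few reads.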
